A study of Mus musculus with 12 samples.

Results

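The chondrocyte integrins followed here are 10 genes for receptor subunits: the alpha subunits Itga1, Itga2, Itga3, Itga5, Itga10, Itga11 and Itgav and the beta subunits Itgb1, Itgb3 and Itgb5. They were chosen by name, with earlier results of these data known, and all 10 were found among the 57010 gene IDs counted. Their mRNA was counted by sequencing of poly(A) RNA from primary mouse chondrocytes, the cells that build and keep cartilage matrix, in 12 libraries. The labels give all cells the genotype wild type and name 3 treatments with 4 libraries each: Control, WT and SIRT5F101L mutant. The treatment text says that cells received a wild-type plasmid or one for SIRT5F101L, a mutant of the lysine deacylase SIRT5. WT is read here as the wild-type SIRT5 plasmid. The labels do not say what Control cells received, so an effect of transfection and one of a plasmid's product cannot be told apart in either comparison with Control. Strain, age and number of animals are not given in the sources used here. Nothing in the labels says that the libraries of a group are separate cultures, so p-values measure only the spread between these libraries, which may be technical.

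Libraries held 15095357 to 24242139 counts. All 8 chondrocyte markers were detected above the expression filter, led by Col2a1 at 6712 ± 691 CPM (counts scaled to a common library size, SD, n = 4) in Control. Sirt5 itself had only 1 to 19 raw counts in a library. The ranges of both plasmid groups met that of Control (9 to 16 counts in Control, 1 to 9 in WT, 9 to 19 in SIRT5F101L), so its counts give no check of the plasmids. Along the first principal component of log2 CPM, which held 72.7% of the variance, Control libraries lay at -75.3 to -72.1 and both plasmid groups at 33.4 to 40.7. SIRT5F101L replicate 1 stood apart from its group on the second component, at 20.3 against -23.5 to -17.0 in replicates 2 to 4, and lay next to WT replicates 2 to 4 at 12.5 to 20.1. WT replicate 1 lay between these and the other SIRT5F101L libraries, at -1.07. SIRT5F101L replicate 1 also had a different trend of log2 CPM on log2 gene length, with a slope of -0.0525 against 0.0671 to 0.0854 in the rest of its group. WT replicate 1 differed from its group in the same measure, at 0.0421 against -0.0324 to -0.00139. Whether the labels of these 2 libraries are right was not tested, and values that include them carry that doubt. Results of each plasmid group are given with its replicate 1, and then without it.

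Integrins are cell-surface receptors made of 1 alpha and 1 beta chain. They bind matrix proteins outside the cell and, through talin, kindlin and the kinases that gather on the beta tail, link them to actin. Itgb1 pairs with most alpha chains. With Itga1, Itga2, Itga10 or Itga11 it forms the collagen receptors, with Itga3 a laminin receptor and with Itga5 the classical fibronectin receptor, which reads the RGD tripeptide. Itgav pairs with Itgb3, Itgb5 or Itgb1 and also reads RGD, in vitronectin, osteopontin and fibronectin. In cartilage, alpha10beta1 is known as the collagen II receptor of mature chondrocytes, alpha11beta1 as a receptor of mesenchymal cells for fibrillar collagen I, and alpha5beta1 as the fibronectin receptor through which fibronectin fragments act on chondrocytes. By Ensembl gene ID, the alpha genes are Itga1 (ENSMUSG00000042284, chromosome 13), Itga2 (ENSMUSG00000015533, chromosome 13), Itga3 (ENSMUSG00000001507, chromosome 11), Itga5 (ENSMUSG00000000555, chromosome 15), Itga10 (ENSMUSG00000090210, chromosome 3), Itga11 (ENSMUSG00000032243, chromosome 9) and Itgav (ENSMUSG00000027087, chromosome 2). The beta genes are Itgb1 (ENSMUSG00000025809, chromosome 8), Itgb3 (ENSMUSG00000020689, chromosome 11) and Itgb5 (ENSMUSG00000022817, chromosome 16).

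The promoters of 4 genes are shown because their genes make the contrasts described below: Itga1 and Itga2, which lie next to each other on chromosome 13 and moved in opposite directions, and Itgb1 and Itgb5, the most abundant beta chains, of which 1 rose and the other stayed near its Control level. Each is the 250 bases before the gene's start in RefSeq (build GRCm38.p6), written 5′ to 3′ on the gene's own strand, and none overlaps an annotated exon. The submitters' processing notes name GRCm39, so these coordinates are RefSeq's and not theirs. Capitals mark a match on either strand to GGGCGG, the core bound by SP factors, or to GGAATG, the core bound by TEAD factors.
Itga1, chr13:115101965-115102214, minus strand: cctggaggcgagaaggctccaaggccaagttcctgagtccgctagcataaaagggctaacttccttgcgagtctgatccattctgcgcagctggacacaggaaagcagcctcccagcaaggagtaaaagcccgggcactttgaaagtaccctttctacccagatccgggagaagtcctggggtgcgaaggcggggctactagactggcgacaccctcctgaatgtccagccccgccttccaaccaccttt
Itga2, chr13:114932101-114932350, minus strand: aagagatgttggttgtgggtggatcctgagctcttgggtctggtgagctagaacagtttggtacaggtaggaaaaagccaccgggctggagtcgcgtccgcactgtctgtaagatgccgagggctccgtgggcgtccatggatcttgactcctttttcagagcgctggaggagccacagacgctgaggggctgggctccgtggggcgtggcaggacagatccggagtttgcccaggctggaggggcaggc
Itgb1, chr8:128685404-128685653, plus strand: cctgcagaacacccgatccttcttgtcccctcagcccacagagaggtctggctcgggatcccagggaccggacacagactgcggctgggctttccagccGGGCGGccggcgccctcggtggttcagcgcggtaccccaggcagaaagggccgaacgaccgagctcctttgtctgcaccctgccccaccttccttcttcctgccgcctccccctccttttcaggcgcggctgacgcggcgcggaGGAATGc
Itgb5, chr16:33829415-33829664, plus strand: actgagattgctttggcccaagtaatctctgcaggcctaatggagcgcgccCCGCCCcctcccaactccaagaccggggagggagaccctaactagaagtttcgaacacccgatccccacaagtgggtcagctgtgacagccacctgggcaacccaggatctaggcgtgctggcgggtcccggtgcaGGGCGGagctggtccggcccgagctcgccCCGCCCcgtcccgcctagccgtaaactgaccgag
RefSeq windows were matched for 9 of the 10 genes. GGGCGG stood in the windows of 4 genes (Itga3, Itga5, Itgb1 and Itgb5) and in 32.7% of all 32851 windows of the same length. GGAATG stood in those of Itga10 and Itgb1, and in 12.6% of all windows. No window of the 9 held the AP-1 motif TGANTCA (6.75% of all windows), the SOX core ACAATG (10.7%) or the NF-kB consensus (5%), all searched on both strands. No search motif overlaps another in the windows shown. A match is a description of these letters and not of a bound site.

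Against Control, integrin genes rose and fell in both plasmid groups. In each of them Itgb3, Itga2 and Itga3 rose more than 3-fold, Itgav, Itga5 and Itgb1 rose less, and Itga11, Itga1 and Itga10 fell. Itgb5 stayed close to its Control level. Levels are TMM-scaled CPM, and fold changes, standard errors (SE) and p-values come from 1 edgeR quasi-likelihood fit of the 12 libraries, adjusted by Benjamini-Hochberg over 14253 tested genes. A gene was called at an adjusted p under 0.05. Both plasmid groups were set against the same Control libraries, so their changes share those libraries and are given side by side.

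Of the 10 genes, 9 were called in WT against Control, 6 higher and 3 lower, where 56.8% of all tested genes were called (28.7% higher and 28.1% lower). In SIRT5F101L against Control all 10 were called, 6 higher and 4 lower, where 60.7% of all tested genes were called (30% higher and 30.7% lower). For 9 genes the 4 libraries of either plasmid group did not overlap with Control, which held for 53.5% of all tested genes in WT and 51.3% in SIRT5F101L. With a background this high, the number of calls says little about these genes, so sizes are given as well. The genes were chosen with earlier results of these data known, so sizes beside those of all genes are descriptions only. The median log2 fold change of the 10 genes was 0.57 in WT and 0.54 in SIRT5F101L, against -0.01 and -0.02 over all tested genes. The median size without sign was 1.0 and 1.13, against 0.37 and 0.40. Sizes like these were not particular to the 10, as the other integrin subunit genes had medians of 1.1 and 0.99. As these are bulk libraries, fewer cells of a type and less RNA per cell cannot be told apart. The directions against Control of the 9 genes other than Itgb5 were the same, and their calls held, under every scaling, filter, test and left-out library that was run.

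**Figure D1:**
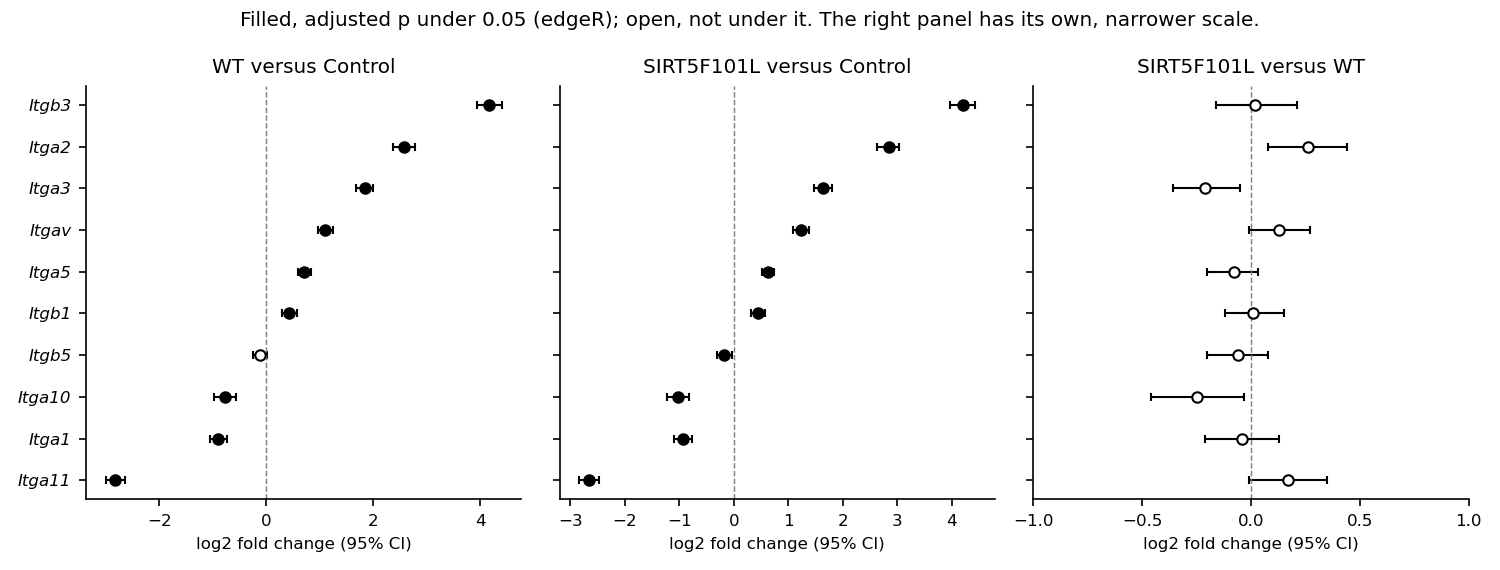
Log2 fold change of each integrin gene in WT against Control, SIRT5F101L against Control and SIRT5F101L against WT, with the 95% interval from the edgeR fit and filled points for called genes. The first and second panels run from Itga11 at -2.83 and -2.65 to Itgb3 at 4.17 and 4.2, while the third, on a narrower axis, holds every gene between -0.25 and 0.26.

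The 4 collagen-binding alpha chains did not move together. Itga2 rose several-fold in both plasmid groups, while Itga1, Itga10 and Itga11 fell. The largest fall was that of Itga11, which was the leading collagen receptor chain per length in Control and came second to Itga2 in each plasmid library.

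Itga11 stood at 177, 152, 177 and 189 CPM in Control replicates 1 to 4. It was at 26.6, 23.5, 24.9 and 22.7 CPM in WT and at 24.6, 31.3, 27.8 and 26.7 CPM in SIRT5F101L. Every Control library was above every plasmid library, by a wide gap. On the log2 scale it fell by 2.83 (SE 0.08, edgeR adjusted p = 2.43e-16) in WT, or 7.10-fold lower, and by 2.65 (SE 0.08, edgeR adjusted p = 4.55e-16) in SIRT5F101L, or 6.30-fold lower. It ranked 145th from the lowest of 14253 genes in WT and 176th in SIRT5F101L.

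Itga2, the alpha chain of the collagen receptor alpha2beta1 that platelets and epithelia also carry, had 13.5, 11.4, 12.1 and 13.8 CPM in Control. WT libraries held 82.7, 74.2, 71.4 and 73.8 CPM and SIRT5F101L libraries 73.1, 99.9, 93.0 and 97.0 CPM. The lowest plasmid library was above the highest Control library, and SIRT5F101L replicate 1 lay within the WT range while the 3 others of its group lay above it. Itga2 rose on the log2 scale by 2.57 (SE 0.10, edgeR adjusted p = 1e-14) in WT and by 2.84 (SE 0.10, edgeR adjusted p = 2.08e-15) in SIRT5F101L, 5.95-fold and 7.15-fold.

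Itga1, which with Itgb1 binds collagen IV as well as fibrillar collagens, had 56.4, 55.9, 60.8 and 65.7 CPM in Control. It had 33.9, 30.6, 33.3 and 30.4 CPM in WT and 27.7, 34.3, 30.7 and 32.5 CPM in SIRT5F101L. No plasmid library reached the lowest Control library. It fell by 0.90 on the log2 scale in WT (SE 0.08, edgeR adjusted p = 6.56e-09) and by 0.93 in SIRT5F101L (SE 0.08, edgeR adjusted p = 3.35e-09).

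Itga10, the chondrocyte collagen II receptor chain, had 20.3, 20.7, 23.4 and 22.6 CPM in Control. WT libraries held 11.4, 13.8, 13.4 and 12.4 CPM and SIRT5F101L libraries 11.3, 9.22, 11.5 and 10.6 CPM. The groups again lay apart from Control without overlap. Itga10 fell by 0.77 on the log2 scale (SE 0.10, edgeR adjusted p = 1.02e-06) in WT and by 1.02 (SE 0.10, edgeR adjusted p = 2.26e-08) in SIRT5F101L. In the GENCODE M21 annotation 33.5% of its exon bases also lie in Gm42957, a gene listed at 0 in all libraries. How reads in such shared bases were counted, and whether strand was used, is not given in the sources used here.

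Itga1 and Itga2 are neighbours on chromosome 13, in the RefSeq order Mocs2, Itga2, Itga1, with Pelo inside Itga1 and listed at 0 in all libraries. Mocs2, a molybdenum cofactor gene on the other side of Itga2, was at 57.2 CPM in Control, 60 in WT and 57.2 in SIRT5F101L. It did not pass the test, with log2 fold changes of 0.07 (edgeR adjusted p = 0.561) in WT and 0.0005 in SIRT5F101L (edgeR adjusted p = 0.997). Of these 3 adjacent genes, then, Itga2 was called higher, Itga1 was called lower and Mocs2 was not called.

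Among the chondrocyte integrins followed here, the alpha chains that bind laminin or RGD ligands, Itga3, Itgav and Itga5, all rose. Itga3 rose the most, Itgav by a little over 2-fold and Itga5 the least. In Itga3, the laminin receptor chain, Control libraries held 67.5, 51.7, 62.9 and 69.1 CPM. WT libraries held 229, 224, 235 and 214 CPM and SIRT5F101L libraries 195, 187, 192 and 207 CPM, so the 3 groups did not overlap. It rose on the log2 scale by 1.84 (SE 0.08, edgeR adjusted p = 3.86e-14) in WT and by 1.64 (SE 0.08, edgeR adjusted p = 2.48e-13) in SIRT5F101L, 3.59-fold and 3.11-fold.

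Itgav, the shared alpha chain of the vitronectin and osteopontin receptors, had 191, 180, 188 and 188 CPM in Control. It had 433, 394, 384 and 397 CPM in WT and 376, 478, 451 and 453 CPM in SIRT5F101L. Every plasmid library lay far above the highest Control library, and SIRT5F101L replicate 1 was the lowest of them. It rose by 1.10 (SE 0.07, edgeR adjusted p = 2.68e-11) in WT and by 1.23 (SE 0.07, edgeR adjusted p = 4.5e-12) in SIRT5F101L, both on the log2 scale.

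Itga5, the fibronectin receptor chain, was the most abundant alpha chain per length in every group and had 205, 187, 211 and 196 CPM in Control. WT libraries held 319, 330, 337 and 320 CPM and SIRT5F101L libraries 310, 300, 301 and 323 CPM. The plasmid groups overlapped with each other and lay above all Control libraries. Itga5 rose on the log2 scale by 0.71 (SE 0.06, edgeR adjusted p = 9.93e-10) in WT and by 0.63 (SE 0.06, edgeR adjusted p = 6.17e-09) in SIRT5F101L.

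Among the beta chains, Itgb3 went from the bottom of the per-length order to the middle of it, Itgb1 rose modestly and Itgb5 stayed within the Control range or just under it. Itgb3, the beta chain of the vitronectin receptor alphavbeta3 and of the platelet fibrinogen receptor, had 11.2, 6.53, 7.08 and 8.68 CPM in Control. It had 158, 141, 157 and 145 CPM in WT and 151, 147, 158 and 155 CPM in SIRT5F101L. Its counts were 129 to 193 in Control libraries and 2193 to 3947 in plasmid libraries, well over the sampling floor of 3 counts. Itgb3 rose on the log2 scale by 4.17 (SE 0.11, edgeR adjusted p = 3.95e-17) in WT and by 4.2 (SE 0.11, edgeR adjusted p = 2.99e-17) in SIRT5F101L, 18-fold and 18.3-fold. It ranked 90th from the highest of 14253 genes in WT and 88th in SIRT5F101L.

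Megakaryocytes and platelets also express Itgb3, so their markers were summed beside it. The 5 markers came to 9.37 to 10.4 CPM in Control, 66.9 to 81.0 CPM in WT and 58.0 to 67.4 CPM in SIRT5F101L. Nearly all of the difference was Ppbp, a chemokine gene, at 1.47, 64.6 and 56.6 CPM in Control, WT and SIRT5F101L. Itga2b, the partner of Itgb3 on platelets, was at 6.02 ± 0.434 CPM in Control and at 3.70 ± 0.698 CPM in WT and 3.51 ± 0.283 CPM in SIRT5F101L (SD, n = 4). Gp9, a defining platelet gene, was at 0.0952, 0.0898 and 0.133 CPM, and Gp1ba at 0.919, 1.10 and 1.10 CPM. Pf4, a platelet chemokine gene, was called higher in both groups, at 1.39 CPM in Control, 2.22 in WT and 2.24 in SIRT5F101L (edgeR adjusted p = 0.0408 and 0.0351). So Ppbp and Pf4 rose, Itga2b fell and Gp9 stayed near 0 where Itgb3 was high, and the part of such cells in the rise of Itgb3 was not tested.

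Itgb1, which can partner all 7 alpha chains, had 1438, 1201, 1416 and 1438 CPM in Control. It had 1862, 1762, 1830 and 1964 CPM in WT and 1880, 1897, 1869 and 1847 CPM in SIRT5F101L. Control replicate 2 was low within its group, and no Control library reached a plasmid library. Itgb1 rose on the log2 scale by 0.43 (SE 0.06, edgeR adjusted p = 8.19e-06) in WT and by 0.45 (SE 0.06, edgeR adjusted p = 5e-06) in SIRT5F101L, 1.35-fold and 1.36-fold.

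Itgb5, the beta chain of the other vitronectin receptor alphavbeta5, had 759, 639, 754 and 721 CPM in Control. It had 648, 666, 683 and 655 CPM in WT and 694, 585, 647 and 618 CPM in SIRT5F101L, and both groups overlapped with Control. The log2 fold change was -0.12 in WT (95% interval -0.25 to 0.02, edgeR adjusted p = 0.143) and -0.17 in SIRT5F101L (95% interval -0.31 to -0.04, edgeR adjusted p = 0.0268). In SIRT5F101L the edgeR call was lost without Control replicate 1 (adjusted p = 0.0836) or 3 (adjusted p = 0.0824) and without SIRT5F101L replicate 2 (adjusted p = 0.0986) or 4 (adjusted p = 0.0649), and over all alternatives the adjusted p ran from 0.00262 to 0.0986. In WT the edgeR adjusted p passed the threshold without Control replicate 2 (-0.17, adjusted p = 0.0279), in a range from 0.0279 to 0.315.

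**Figure D2:**
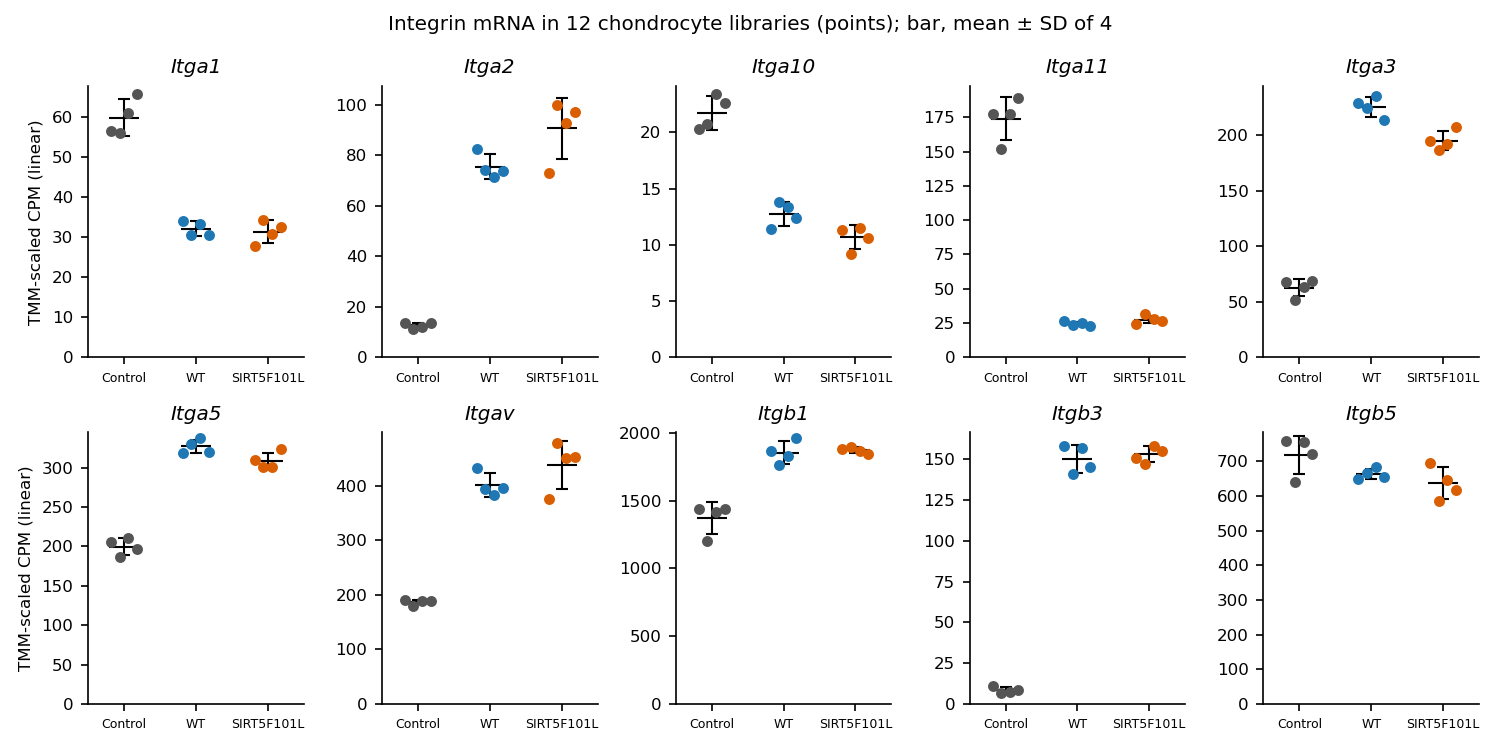
Level of each of the 10 integrin genes (TMM-scaled CPM, linear scale from 0) in the 12 libraries, 1 point per library, with the mean and SD of each group of 4 as bars. Itgb3 moves from 6.53 to 11.2 CPM in Control to 141 to 158 CPM in the plasmid groups, Itga11 moves the opposite way, and only the Itgb5 points of Control and of both plasmid groups overlap.

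Levels of different integrin genes were compared only per length, as CPM per kilobase (kb) of all annotated exon bases. Sums over marker lists are in CPM without length. In Control the order from the highest was Itgb1 (336 ± 28.3 CPM per kb), Itgb5 (202), Itga5 (40.5), Itga11 (33.9), Itgav (17.4), Itga3 (11), Itga10 (4.19), Itga1 (3.21), Itga2 (1.78) and Itgb3 (1.42). Neighbours in that order lay apart in all 4 libraries except Itga2 and Itgb3, whose ranges overlapped. In WT it was Itgb1 (454), Itgb5 (187), Itga5 (66.2), Itga3 (39.5), Itgav (37.4), Itgb3 (25.4), Itga2 (10.6), Itga11 (4.76), Itga10 (2.46) and Itga1 (1.72), with Itga3 and Itgav overlapping. SIRT5F101L had the same order except that Itgav (40.9) stood before Itga3 (34.2), which overlapped, as did Itga10 (2.06) and Itga1 (1.68). So the top of the list was Itgb1, Itgb5 and Itga5 in all groups, while Itga11 moved from 4th to 8th, Itgb3 from 10th to 6th and Itga2 from 9th to 7th. With the length of the longest transcript instead, Itga1 stood above Itga10 in all groups (5.44 against 4.31 CPM per kb in Control) and Itgav above Itga3 in WT (57.0 against 46.4), so these 2 orders depend on the gene model.

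As a share of the 4 collagen-binding alpha chains per length, Itga11 made up 78.6 ± 0.893% in Control, 24.4 ± 0.861% in WT and 24.7 ± 1.27% in SIRT5F101L (SD, n = 4). Itga2 made up 4.37, 4.19, 3.86 and 4.14% in the Control libraries. Its share was 55.7, 53.9, 52.0 and 55.1% in WT and 54.7, 59.0, 58.4 and 60.1% in SIRT5F101L. Itga2 thus went from the smallest of the 4 shares to the largest, in every plasmid library. Itga1 and Itga10 kept small shares throughout, at 7.46% and 9.77% in Control, 8.82% and 12.6% in WT and 7.71% and 9.54% in SIRT5F101L. The sum of the 4 fell from 43.0 ± 3.49 CPM per kb in Control to 19.5 ± 0.877 in WT and 21.8 ± 2.17 in SIRT5F101L, and Control did not overlap with either plasmid group.

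Over all 7 alpha chains the sum rose, from 112 ± 6.65 CPM per kb in Control to 163 ± 3.46 in WT and 159 ± 6.64 in SIRT5F101L. Itga11 held 30.2% of it in Control, 2.93% in WT and 3.37% in SIRT5F101L. Itga3 went from 9.80% to 24.3% and 21.5%, and Itgav from 15.6% to 23.0% and 25.6%. Itga5 held the largest share in every group, at 36.2%, 40.7% and 39.3%. The shares of Itga3, Itgav and Itga2 were thus higher where that of Itga11 was lower. These sums and shares are descriptions of RNA levels, with no test, and RNA says nothing here of how much receptor stood on the cell surface.

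**Figure D3:**
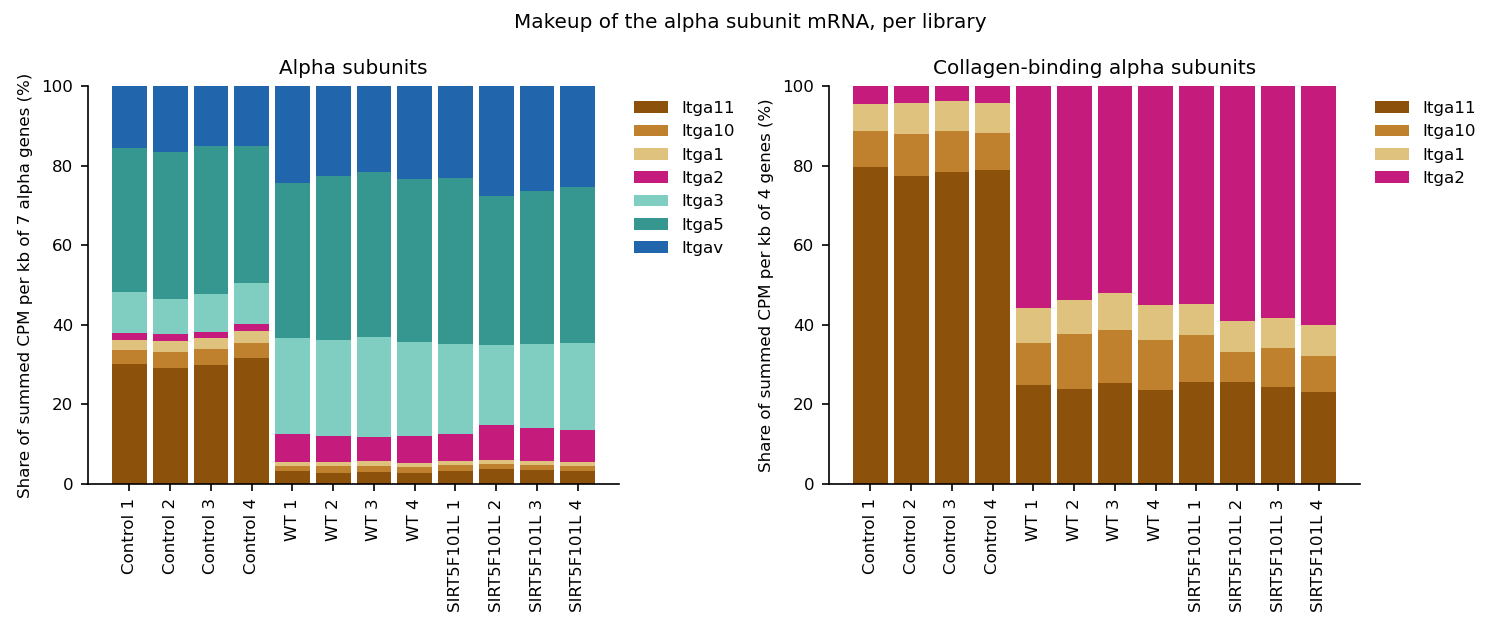
Share of each alpha chain in the summed per-length level (CPM per kb of exons) of the 7 alpha genes, and of the 4 collagen-binding ones, for each of the 12 libraries. Itga11 fills 30.2% of the 7 and 78.6% of the 4 on average in Control and is small in each plasmid library, where Itga2 leads the collagen-binding chains at 52.0% to 60.1%.

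Among the 3 beta chains, Itgb3 rose from 0.261 ± 0.0528% of the summed per-length level in Control to 3.82 ± 0.217% in WT and 3.90 ± 0.138% in SIRT5F101L. Itgb5, the alternative partner of Itgav, held 37.4%, 28% and 26.9%, and Itgb1 62.3%, 68.2% and 69.2%. The ratio of Itgb5 to Itgb3 per length was 147 ± 28.3 in Control, 7.35 ± 0.438 in WT and 6.92 ± 0.481 in SIRT5F101L. Itgb3 had the highest fold change of the 10 genes and still stayed below Itgb5 and Itgb1 in every library. The ratio of Itgb1 to the sum of the 6 alpha chains that pair with no other beta chain was 3.56 ± 0.0796, 3.63 ± 0.243 and 3.87 ± 0.158, so Itgb1 and that sum rose by similar factors. The ratio of Itga5 to Itgav was 2.33 ± 0.0883 in Control, 1.77 ± 0.129 in WT and 1.54 ± 0.183 in SIRT5F101L. This ratio also depends on the gene model, and with the longest transcript as length it was 1.71, 1.3 and 1.13.

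Without replicate 1, the SIRT5F101L values against Control changed little. Itgb3 was again at 4.2 on the log2 scale, Itga2 at 2.93, Itga3 at 1.64, Itgav at 1.30, Itga5 at 0.63, Itgb1 at 0.45, Itgb5 at -0.22, Itga1 at -0.88, Itga10 at -1.04 and Itga11 at -2.60. All 10 were called, with the same directions. Per length the order of the 10 genes was unchanged. Itga2 then made up 59.2 ± 0.862% and Itga11 24.3 ± 1.35% of the 4 collagen-binding chains (SD, n = 3), and their sum was 22.9 ± 0.737 CPM per kb. Of the 7 alpha chains, Itga11 held 3.44%, Itga3 21.1%, Itgav 26.4% and Itga5 38.4%. The ratio of Itgb5 to Itgb3 was 6.69 ± 0.0907 and that of Itga5 to Itgav 1.46 ± 0.0900. Counts of called ligand, machinery and receptor genes against Control, given below with all 12 libraries, moved by at most 2 in any list. Without WT replicate 1, the log2 fold changes in WT against Control were 4.15 for Itgb3, 2.53 for Itga2, 1.84 for Itga3, 1.07 for Itgav, 0.72 for Itga5, 0.43 for Itgb1, -0.10 for Itgb5, -0.72 for Itga10, -0.92 for Itga1 and -2.87 for Itga11. The same 9 genes were called as with it, and counts of calls in the lists moved by at most 1. The per-length order in WT was also unchanged, with Itga2 at 53.7 ± 1.56% and Itga11 at 24.2 ± 0.964% of the 4 collagen-binding chains (SD, n = 3) and a ratio of Itgb5 to Itgb3 of 7.52 ± 0.328.

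The plasmid groups were next set against each other, which asks whether the F101L change in SIRT5 altered these genes. Of the 10, edgeR called none and DESeq2 none, where by edgeR 0.0421% of all tested genes, 6 in number, were called. At an unadjusted p under 0.05 there were 3 of the 10 (Itga2, Itga3 and Itga10), against 1701 of 14253 genes. Only Itga3 did not overlap between the groups, which held for 4.02% of all tested genes. Itga2 was at 75.5 ± 4.94 CPM in WT and 90.8 ± 12.1 CPM in SIRT5F101L (SD, n = 4), a log2 difference of 0.26 (95% interval 0.08 to 0.44, edgeR adjusted p = 0.355). Itga3 was at 225 ± 9.12 and 195 ± 8.60 CPM, a difference of -0.21 (-0.36 to -0.05, edgeR adjusted p = 0.360). Itga10 was at 12.7 ± 1.07 and 10.7 ± 1.04 CPM, a difference of -0.25 (-0.46 to -0.03, edgeR adjusted p = 0.373). For Itga11 and Itgav the differences were 0.17 (-0.01 to 0.35) and 0.13 (-0.01 to 0.27).

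The other 5 genes differed by at most 0.08 on the log2 scale. Itgb3 differed by 0.02 (-0.16 to 0.21) and Itgb1 by 0.01 (-0.12 to 0.15), Itga1 by -0.04 (-0.21 to 0.13), Itgb5 by -0.06 (-0.20 to 0.08) and Itga5 by -0.08 (-0.20 to 0.03). Over the 10 genes the intervals reach no further than 0.44 upward and -0.46 downward. A miss of the threshold does not show that both plasmids act alike. SIRT5F101L replicate 1 decided the number of calls. Without it edgeR called 3 of the 10, with Itga2 at 0.35 (adjusted p = 0.000432), Itgav at 0.20 (adjusted p = 0.015) and Itga3 at -0.20 (adjusted p = 0.0424), while 2212 of 14528 tested genes were called. Without any other single library none of the 10 was called. Under the alternatives that did not leave out a single library, none of the 10 was called either, and Itgav ran from 0.04 to 0.13. SIRT5F101L replicates 2 to 4 had length slopes of 0.0671 to 0.0854, against -0.0324 to 0.0421 in WT. The part of gene length in the 3 calls without replicate 1 was not tested.

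**Figure D4:**
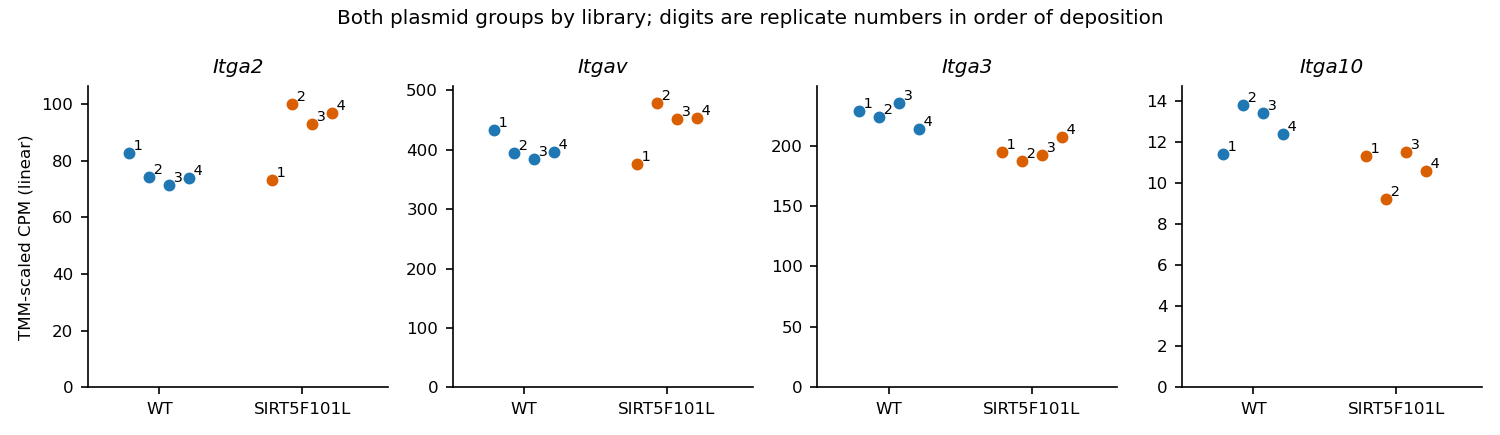
Level of Itga2, Itgav, Itga3 and Itga10 (TMM-scaled CPM, linear scale from 0) in the 4 WT and 4 SIRT5F101L libraries, 1 point per library with its replicate number. For Itga2 and Itgav, SIRT5F101L replicate 1 (73.1 and 376 CPM) lies below the 3 other libraries of its group, within the WT range for Itga2 and just below it for Itgav, and for Itga3 all SIRT5F101L libraries lie below WT.

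The 17 other integrin subunit genes were followed as the rest of the family. The 10 genes held most of the family's per-length level: the 7 alpha chains made up 90.9% of all alpha chains in Control, 86.1% in WT and 86.6% in SIRT5F101L, and the 3 beta chains 98.7%, 96.9% and 97.1% of all beta chains. With the longest transcript as length, the 7 alpha chains made up 86.2%, 78.9% and 79.8%. Of the 17, 14 passed the expression filter and 9 were called in WT (5 higher, 4 lower) and 9 in SIRT5F101L (6 higher, 3 lower), where 56.8% and 60.7% of all tested genes were called. The median log2 fold change was 0.14 and 0.33. Without sign the median size was 1.1 and 0.99, close to the 1.0 and 1.13 of the 10 genes. Those called in WT at a mean of at least 5 CPM were Itga6, Itga7 and Itgb7. Itgb8, a beta chain that pairs with Itgav, was called in SIRT5F101L and not in WT (11.1 CPM in Control, 13.6 in WT and 17.0 in SIRT5F101L, log2 fold change 0.61, edgeR adjusted p = 0.000565), but it did not pass the test between the plasmid groups (edgeR adjusted p = 0.375). Itga6, a laminin receptor chain, rose from 49.8 ± 5.13 to 149 ± 8.92 CPM in WT and 143 ± 6.46 CPM in SIRT5F101L, a log2 fold change of 1.59 and 1.52. Itga7, the laminin receptor chain best known from muscle, rose from 22.2 to 62.3 and 55.3 CPM (1.49 and 1.32). Itgb7, the beta chain of leukocyte homing receptors, rose from 8.58 to 48.2 and 45.0 CPM (2.49 and 2.39). The changes of Itga6, Itga7 and Itgb7 were called by edgeR in both groups, with adjusted p-values of 1.3e-11 or below.

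Macrophages and other leukocytes carry integrins too, and their markers were summed. The 7 markers came to 164 to 197 CPM in Control, 128 to 148 in WT and 138 to 176 in SIRT5F101L. Ptprc, the pan-leukocyte marker, was at 1.90, 0.787 and 0.709 CPM, and Itgam, the integrin chain of macrophages, was listed at 0 in all libraries. Flna, the filamin that nearly every adherent cell uses, was also listed at 0 in all of them, so a listed 0 does not show that a gene is silent. Cd14 was the marker that went up, from 12.4 to 51.2 and 59.7 CPM. The sum was no higher in the plasmid groups than in Control. The 3 mural cell markers came to 264 to 352 CPM in Control, 500 to 584 in WT and 448 to 529 in SIRT5F101L, but they went different ways. Cspg4 rose (296, 535 and 468 CPM), Myh11, a smooth muscle myosin, fell (4.12, 1.16 and 0.92 CPM), and Rgs5 (8.14, 8.10 and 11.6 CPM) was called higher in SIRT5F101L against Control but not in WT, nor between the plasmid groups. Their part in the rise of Itgav, Itgb3 and Itga5 was not tested. Endothelial markers came to 3.17 to 4.81 CPM over all libraries.

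The sum of the 4 fibroblast markers was 314 to 343 CPM in Control, 298 to 331 in WT and 341 to 372 in SIRT5F101L. Within it Thy1 fell (123, 52.7 and 53.1 CPM) and Pdgfra rose (199.9, 262 and 306 CPM), and Dpt, at 1.16 CPM in Control, fell to 0.0391 and 0.0301 CPM. The 4 osteoblast markers came to 58.4 to 68.3 CPM in Control, 38.1 to 49.0 in WT and 35.3 to 57.3 in SIRT5F101L, below Control in every plasmid library. Sp7, an osteoblast transcription factor, fell (3.16, 0.991 and 1.11 CPM), as did Ibsp, while Runx2 was not called (45.8, 42.5 and 50.3 CPM). The 8 chondrocyte markers came to 7849 to 9821 CPM in Control, 2223 to 2376 in WT and 1773 to 1992 in SIRT5F101L. Of the 8, 6 fell in each plasmid group (28.1% of all tested genes were called lower in WT and 30.7% in SIRT5F101L), with Col2a1 and Comp making up most of the sum. Sox9, the master transcription factor of chondrocytes, fell little (142, 124 and 113 CPM). Hapln1, the link protein, rose (82.1, 97.7 and 93.0 CPM), and Acan, or aggrecan, rose in WT (133 and 184 CPM) and was not called in SIRT5F101L (143 CPM). The part of these markers in the changes of Itga10, Itga11 and Itga1 was not tested.

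The collagen genes, ligands of the 4 collagen receptors, mostly fell. Of 16 on the list, 15 were called in each plasmid group, 2 higher and 13 lower (56.8% and 60.7% of all tested genes were called), and the median log2 fold change was -1.41 in WT and -1.48 in SIRT5F101L. Col9a1, a chain of the cartilage collagen IX, fell from 84.3 ± 5.38 to 8.89 ± 0.860 CPM in WT and 6.03 ± 0.862 CPM in SIRT5F101L, log2 fold changes of -3.25 and -3.80. Col11a2, of the cartilage fibril collagen XI, fell from 173 to 26.0 and 16.8 CPM (-2.73 and -3.36). The basement membrane chain Col4a1 (0.35 and 0.27) and the microfibril chain Col6a3 (0.35 and 0.24) were the 2 that rose. Col11a2 was also the 1 listed gene called between the plasmid groups, lower by 0.63 in SIRT5F101L (SE 0.10, edgeR adjusted p = 0.0339). In 10 of the 12 fits that left out a library no collagen gene was called between the plasmid groups, because the adjusted p of Col11a2 rose to as much as 0.167. Its log2 difference stayed between -0.66 and -0.58 in those 12 fits, and it was called in all 8 other alternatives.

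The RGD ligands split. Of 16 listed genes 15 were tested, and in each plasmid group 4 were called higher and 9 lower (28.7% and 28.1% of all tested genes in WT, 30% and 30.7% in SIRT5F101L), with a median log2 fold change of -0.37 and -0.42. Spp1, which encodes osteopontin, a ligand of alphavbeta3 and alphavbeta5, rose from 1936 ± 80.2 to 14540 ± 1402 CPM in WT and 15426 ± 1060 CPM in SIRT5F101L, log2 fold changes of 2.91 and 2.99. Ccn2, a matricellular protein, rose by 0.56 and 0.57. Postn, or periostin, fell from 243 to 18.7 and 24.6 CPM (-3.70 and -3.31). Ibsp, bone sialoprotein, went from 14.7 to 0.284 and 0.146 CPM, values near the floor of 3 counts, so that its fitted log2 fold changes of -5.64 and -6.50 are uncertain in size.

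Laminin chains, ligands of Itga3, moved both ways: 9 of 11 were called in WT, 4 higher and 5 lower, and 10 in SIRT5F101L, 5 higher and 5 lower. Of all tested genes 56.8% and 60.7% were called. The medians were 0.07 and 0.04. Lamb1, a beta chain of several basement membrane laminins, rose from 64.5 ± 6.51 CPM in Control to 96.0 ± 1.70 CPM in WT (SD, n = 4), and its log2 fold changes were 0.57 in WT and 0.65 in SIRT5F101L. Among chains with a mean of at least 5 CPM, Lama3 (-2.52 and -2.68) and Lamb3 (-0.76 and -0.94) fell most. Each of these 3 was called by edgeR in both plasmid groups.

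Genes of the adhesion machinery inside the cell moved both ways, more of them up than down. Of 36 listed, 34 were tested; 23 were called in WT (16 higher, 7 lower) and 25 in SIRT5F101L (17 higher, 8 lower), against 56.8% and 60.7% of all tested genes. The median log2 fold change was 0.18 and 0.15 and the median size 0.29 and 0.33, below the 0.37 and 0.40 over all tested genes. Parvb, which links integrin-linked kinase to actin, rose by 1.07 and 1.10, and Actn1, an actin crosslinker, rose from 443 to 767 and 766 CPM (0.79 and 0.79). Nedd9, a docking protein of focal adhesions, fell (-0.75 and -0.62), and so did Tln2, the second talin (-0.74 and -0.64). Each of these 4 was called by edgeR in both groups, with adjusted p-values of 4.27e-06 or below.

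Of 17 other matrix receptors and integrin partners, 13 were called in WT (8 higher, 5 lower) and 14 in SIRT5F101L (7 higher, 7 lower), beside 56.8% and 60.7% of all tested genes. The medians were 0.11 and 0.12. Cd44, the hyaluronan receptor, rose from 220 ± 7.11 to 779 ± 36.2 CPM in WT and 801 ± 65.8 CPM in SIRT5F101L, log2 fold changes of 1.82 and 1.86. Hmmr, which also binds hyaluronan and acts in mitosis, rose by 1.47 and 1.57. Sdc2, a member of the syndecan family, fell from 777 to 297 and 304 CPM (-1.39 and -1.35), and the tetraspanin Cd82 fell by 0.90 and 1.01. The lists of ligands and partners were put together with earlier results of these libraries known, so their directions are descriptions.

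**Figure D5:**
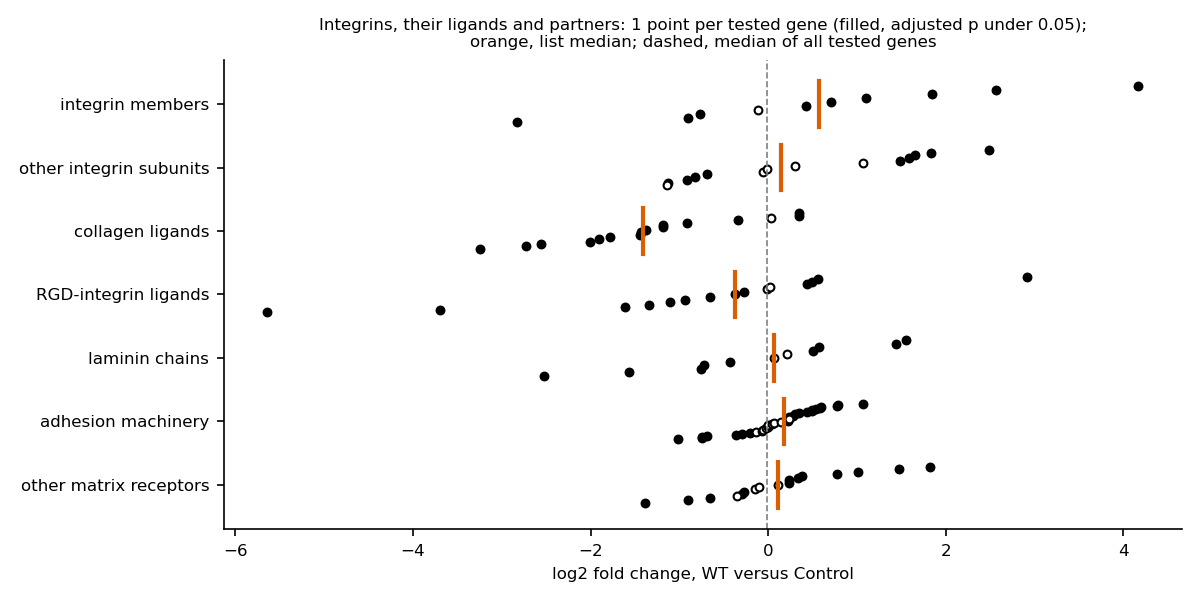
Log2 fold change of each tested gene of the integrin, ligand, adhesion machinery and matrix receptor lists in WT against Control, filled where called, with an orange bar at each list's median and a dashed line at the median of all tested genes. The collagen list lies mostly below 0 with a median of -1.41, while the adhesion machinery lies near 0 with a median of 0.18.

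Genes outside the family with patterns most like Itgb3 and Itga11, the highest and the lowest of the 10, were ranked by Pearson correlation of log2 CPM over the 12 libraries, among 9735 genes. Closest to Itgb3 were the transporter gene Slc6a17 (r = 0.999), Cd34 (0.999) and Tsku (0.998). Slc6a17 went from 7.18 to 136 and 138 CPM. Closest to Itga11 were Igsf10 (0.999), Thbs2, a thrombospondin (0.998), and Efemp1, a fibulin (0.998). Igsf10 went from 616 to 69.7 and 82.1 CPM. Such values are common here, since all 12 points share the step between Control and plasmid libraries: 1108 genes reached 0.95 with Itgb3 and 705 with Itga11. They carry no p-value.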

How the data were processed

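Poly(A) RNA libraries were sequenced as 150 bp read pairs, per the labels' protocols, with a kit that does not mark strand. The authors deposited 1 count table per library, with whole numbers for each Ensembl gene ID. The submitters' processing notes name FastQC 0.11.9, HISAT2 2.2.1, HTSeq 2.0.2 and DESeq2 1.38.3 with the build GRCm39. The strand setting of the counting is not given in the sources used here. Of the 57010 IDs, 52029 were paired with a symbol. Libraries of a group differed by 2.55 to 8.92 times the sampling noise, so none was the same library deposited again, while repeat preparations of 1 culture would also differ by more than that noise.

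Counts were fitted in edgeR 4.0.16 (R 4.3.3) with TMM scaling, the default filter by group and 1 quasi-likelihood model of all 12 libraries with 9 residual degrees of freedom (2-sided tests, Benjamini-Hochberg over 14253 genes). The SE is the log2 fold change divided by the square root of F. The biological coefficient of variation was 9.18%. On simulated counts for WT against Control, 84.9% of the 192 tested genes changed 2-fold were recovered among 13758 genes, and 3.55% of calls were false. The simulation changed few genes, as many up as down, and kept SIRT5F101L at Control levels. With 56.8% of genes called in the real data, these rates need not carry over. Lengths and exon overlaps came from GENCODE M21 and promoters and gene order from RefSeq (GRCm38.p6), whose build is not that of the authors. Promoters were planned for Itgb3 and Itga11. RefSeq windows that overlap no annotated exon were printed instead, chosen after the values were seen.

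The members and lists were chosen with earlier results of these data known. Named genes were the 10 members, the 2 highest and 2 lowest called genes of each list by log2 fold change in WT against Control with a mean of at least 5 CPM, any list gene called between the plasmid groups, and the 3 genes most like the highest and lowest member. A gene that this rule names is not reported here. Other genes named are neighbours of Itga1 and Itga2 or markers from the lists of other cell types. Alternatives were upper-quartile and RLE scaling, every gene with at least 1 count, genes whose mean reached 1 CPM, a robust prior, only the 8 libraries compared, DESeq2 1.42.0, a length trend as offset (loess span 0.5), the longest transcript as length, and leaving out each library. Counting error sets a floor of 3 counts per library.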

Additional observations from a re-analysis of the deposited data

Results flagged for a closer look

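Itgb1 in Control replicate 2 was at 1201 CPM, while the other 3 Control libraries lay between 1416 and 1438 CPM. The gap to the nearest of them was 0.904 of the range of the group, above Dixon's 95% limit for 4 samples. It was the 1 such value among 30 groups of 4 libraries screened (10 genes in 3 groups), where chance alone gives about 1.5. Itgb1 stayed lower in each Control library than in every plasmid library.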

How the results depend on the processing

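Each member's log2 fold change was recomputed under 20 alternatives per comparison, which makes 200 values. Against Control no direction changed in either plasmid group. For WT 198 kept their side of the threshold, and Itgb5 passed it under upper-quartile scaling (-0.17, edgeR adjusted p = 0.0313) and without Control replicate 2. For SIRT5F101L 195 did, and the 5 others were all Itgb5, lost in the fit of only the 8 libraries compared (-0.15, edgeR adjusted p = 0.077) and when any of 4 single libraries was left out. Between the plasmid groups 193 of 200 were unchanged. Itgb3 turned to -0.002 with the length trend as offset. With a library left out, Itga1 ran from -0.08 to 0.02, Itgb1 from -0.01 to 0.04 and Itgb3 from -0.01 to 0.05. Under the other alternatives Itga1 ran from -0.18 to -0.03 and Itgav from 0.04 to 0.13. In SIRT5F101L against Control, these other alternatives gave -1.2 to -0.91 for Itga1 and 1.03 to 1.25 for Itgav. The number of genes called between the plasmid groups, leaving out each library in turn, ran from 0 to 3 for the 10 integrins, from 0 to 2 for the other integrin subunits, from 0 to 4 for collagens, from 0 to 3 for RGD ligands, from 0 to 5 for adhesion machinery and from 0 to 3 for other matrix receptors, each highest without SIRT5F101L replicate 1. With no filter beyond 1 count it was 4 for collagens, 1 for RGD ligands, 1 for adhesion machinery and 1 for other matrix receptors. DESeq2 called 3 collagens and 1 RGD ligand, and the length offset 3 collagens. The cause was not tested. Upper-quartile scaling moved the median of all genes in WT against Control to -0.063, the furthest of the scalings. No paired analysis was possible because the labels number no replicates and the numbers used here only follow the order of deposition. Counts of 129 or more per library for Itgb3, and 142 or more for the other members, put all 10 well above the floor of 3 counts.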
